A study of Mus musculus with 6 samples.

Results

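Hox genes encode homeodomain transcription factors that lie in 4 clusters, HoxA to HoxD, and mark position along the body axis. A gene carrying the same number in different clusters is a paralogue, and the number follows the order along the cluster, so low numbers are expressed from the head end and high numbers towards the tail end. The prostate and its neighbours, the seminal vesicle, bladder neck and urethra, form in the tail-end domain of the posterior paralogues. Hoxb13, Hoxa13, Hoxd13 and Hoxa10 are all known from mouse genetics to shape the prostate or its accessory glands, and adult tissues keep much of their embryonic Hox pattern. The mouse has 39 protein-coding Hox genes, each named by its cluster letter and paralogue number. All genes with a name of that form were taken, and 36 of the 39 had a row among the 21718 genes of the table. Hoxb1, Hoxc12 and Hoxc13 were not analysed here.

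RNA came from 6 whole prostate tumours of castrated mice of 1 genetically engineered prostate tumour model, which both groups share. All recipients were irradiated with 900 rad and given bone marrow at 6 weeks of age, castrated at 8 weeks and sampled 16 weeks after castration. The F10-intact group (3 samples, numbered 1, 3 and 4) received F10fl/fl marrow without LysM-Cre. The F10-deleted group (3 samples, numbered likewise) received F10fl/fl; LysM-Cre+ marrow, in which Cre acts in myeloid cells and removes F10, the gene for coagulation factor X. Tumour epithelium and stroma were the recipients' own in both groups, and neither marrow donor carried unfloxed F10 alleles by its label. Resident myeloid cells that survive irradiation would keep F10. The labels do not say that each sample is a separate animal, so the tests measure the spread between these samples.

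Total counts ran from 9237308 to 11821588 per sample, of which the Hox genes held 5578 to 9040, or 0.053% to 0.0843%. Counts of F10 itself were 2, 6 and 17 in the F10-intact samples, against 7, 4 and 9 in the F10-deleted samples, so its values overlapped and do not separate the groups. The luminal marker Krt8 ran from 964 to 1235 CPM (counts scaled to library size), and all 9 luminal markers had a row. F10-intact sample 4 stood apart in its Hox RNA, being the lowest of the 6 samples for 21 of the 27 tested members (77.8%) against 27.8% of all 15963 genes tested. Results that rest on it are given with and without it.

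The members share the homeobox, whose product folds into 3 helices, the last of which lies in the major groove of DNA. An uninterrupted homeobox of 180 bases was found in all 36 members. Bases agreed at a median of 82.0% of positions between members of the same paralogue group (36 pairs) and 61.7% between other pairs (594 pairs). The stretch from codon 41 to codon 60 is shown, 5′ to 3′ on the coding strand. It is given for the 5 most abundant members and for Hoxc10, the most abundant of HoxC. This stretch encodes the helix that lies in the major groove. The sequences are from GENCODE M21 transcripts, and capitals mark codons 42 to 58, the recognition helix.
Hoxb13: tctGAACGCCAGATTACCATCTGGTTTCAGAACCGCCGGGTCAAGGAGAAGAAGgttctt
Hoxa13: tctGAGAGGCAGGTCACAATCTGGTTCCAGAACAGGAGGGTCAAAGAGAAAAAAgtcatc
Hoxd13: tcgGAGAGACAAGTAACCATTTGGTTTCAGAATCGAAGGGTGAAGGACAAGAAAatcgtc
Hoxb9: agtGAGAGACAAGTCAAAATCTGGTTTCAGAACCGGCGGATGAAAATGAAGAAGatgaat
Hoxa10: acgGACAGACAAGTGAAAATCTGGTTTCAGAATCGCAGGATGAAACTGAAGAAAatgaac
Hoxc10: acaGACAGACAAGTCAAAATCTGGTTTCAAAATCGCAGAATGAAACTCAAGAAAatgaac

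Over the whole homeobox, Hoxb13 shared 68.9% of bases with Hoxa13, 67.2% with Hoxd13 and 60% with Hoxb9, its neighbour in the cluster. Hoxa10 and Hoxc10 shared 80.6%. Over their annotated coding transcripts, no pair of members shared an exact stretch of 60 bases or more, whereas reads were 120 bases long. The longest identical run within the homeobox of any pair was 52 bases. Overlap of annotation is the other way that members can share reads: 16 of the 36 shared exon bases with another annotated gene, 9 on the same strand and 10 on the opposite strand. The values of those members are uncertain to that extent. Most was shared by Hoxd3 (62.8% of exon bases), Hoxb3 (52.9%), Hoxd4 (52.3%), Hoxa11 (35.0%), Hoxb2 (27.3%) and Hoxa3 (27.1%). Hoxa7 shared 20.4%, Hoxc10 8.7% and Hoxa9 1.5%. Over all annotated exons, Hoxd3 and Hoxd4 overlapped each other on the same strand, as did Hoxc5 and Hoxc10. Hoxb13, Hoxb9, Hoxb8, Hoxa10, Hoxa13, Hoxd13, Hoxd8 and Hoxc8 shared none.

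The clusters also hold miRNA genes. The mature forms of miR-196 and miR-10 are shown because miR-196a is known to cut Hoxb8 mRNA and both families sit in more than 1 cluster. Bases 2 to 8 in capitals are the seed, which is the same within each family; miR-615, in HoxC, has another seed and is not shown. They are RefSeq sequences placed on GRCm38.p6, and Mir196a-1 alone of the genes shown had a row in the table.
miR-196a-5p: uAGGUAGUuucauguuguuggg
miR-196b-5p: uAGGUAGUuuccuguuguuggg
miR-10a-5p: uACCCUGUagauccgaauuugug
miR-10b-5p: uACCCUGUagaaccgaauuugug
The site for miR-196a in the 3′ UTR of Hoxb8 matches the exact complement of the miRNA at 21 of 22 bases, in capitals.
Hoxb8 site: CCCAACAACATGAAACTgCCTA

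Among 16269 genes searched over the longest transcript of each, 1 reached that extent of exact complementarity, which was Hoxb8. Seed matches of 7 bases were present in any coding transcript of 10 of the 36 members (27.8%). For all genes searched the share was 17.9%, over the longest transcript only. The search was thus wider for the members, and these shares cannot be compared directly. Hoxa7, Hoxa9, Hoxb7, Hoxb8 and Hoxc8 were among the 10, and Hoxb9, Hoxb13, Hoxa13 and Hoxd13 were not. The small-letter base of the Hoxb8 site shown is a G opposite a U of the seed, a wobble pair that was not counted. The exact seed match of 7 bases in Hoxb8 is therefore elsewhere in its transcripts.

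Hox RNA was led by the posterior paralogues in every tumour. Levels between genes are compared as RPKM, reads per kilobase of merged exons and per total of mapped counts, with TMM scaling. Summed over the 36 members, the level was 322, 259 and 229 RPKM in F10-intact samples 1, 3 and 4, and 260, 206 and 233 in F10-deleted samples 1, 3 and 4, so the groups overlapped in the total. Paralogue groups 9 to 13 took 58.4%, 72.2% and 89.4% of that sum in the F10-intact samples, against 66.3%, 74.0% and 68.6% in the F10-deleted samples. F10-intact sample 1 was lowest and sample 4 highest, with all F10-deleted samples between them. Central groups 4 to 8 took 38.5%, 25% and 8.96% against 30.2%, 22.6% and 27.8%. Anterior groups 1 to 3 stayed small, at 3.16%, 2.81% and 1.63% against 3.55%, 3.33% and 3.58%, the lowest being F10-intact sample 4. Between 19 and 24 members reached 1 RPKM in a sample.

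**Figure D1:**
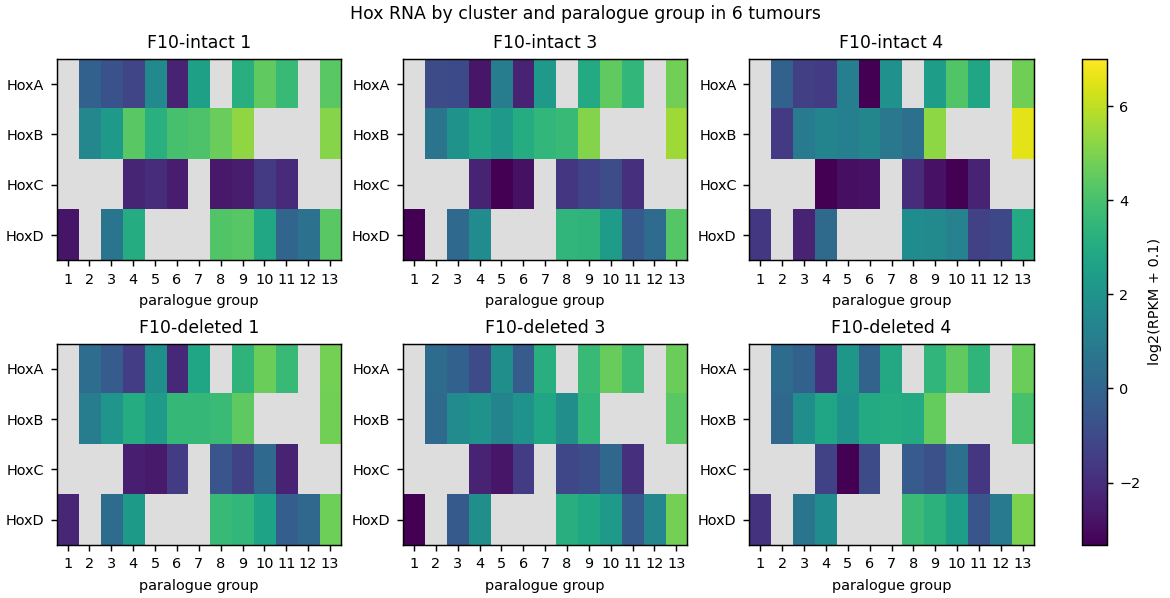
Level of each Hox gene as log2(RPKM + 0.1) in each of the 6 tumours, with clusters in rows, paralogue groups in columns and grey where no gene is shown. The right-hand columns are bright in HoxA, HoxB and HoxD of every sample, HoxC is dark throughout, and the middle of HoxB and HoxD is dimmer in F10-intact sample 4.

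Hoxb13, Hoxb9, Hoxa13, Hoxa10 and Hoxd13 together held 42.4% to 81.5% of the Hox sum in a sample. The highest mean over the 6 samples was that of Hoxb13, followed by Hoxb9, Hoxa13, Hoxa10 and Hoxd13, with means of 39.97, 27.9, 25.8, 22.3 and 22.2 RPKM. Neighbours in that order did not differ beyond the spread over samples, and the leader changed: Hoxb9 in F10-intact sample 1, Hoxb13 in F10-intact samples 3 and 4, Hoxa13 in F10-deleted sample 1 and Hoxd13 in F10-deleted samples 3 and 4.

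No Hox member passed the test between marrow groups. In the edgeR quasi-likelihood test with Benjamini-Hochberg adjustment over all genes, 0 of 27 tested members had an adjusted p under 0.05, and 0.0439% of all genes tested did, each of them higher in the F10-deleted samples. The lowest adjusted p of a member was 0.246. At an unadjusted p under 0.05 there were 9 of 27 members, against a background of 10.9% of genes (6.15% higher and 4.74% lower). The values of all 3 F10-deleted samples lay above all 3 F10-intact samples for 8 members (background 8.99%) and below for 2 (background 7.67%). Hoxc8 and Hoxc10, 2 of those 8 and also among the 9, reached the test through the F10-deleted group alone and had to differ. Log2 fold changes, F10-deleted over F10-intact, were above 0 for 17 members and below 0 for 10, with a median of 0.08 against -0.02 for all genes. Without F10-intact sample 1 that median was 0.55, and without F10-intact sample 4 it was -0.23, with 12 above and 15 below 0, while the counts without overlap were again 8 above (background 12.6%) and 2 below (background 12.4%). DESeq2 called 2 members, Hoxb13 and Hoxb9, both lower in the F10-deleted samples, where its background was 3.18% of genes in either direction and 0.861% lower. The other 9 members with a row fell under the filter on low counts, and none of them is called.

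The clusters differed in the side on which their members lay. Of HoxA, 8 of 8 tested members had fold changes above 0, with a median of 0.65 (0.50 without F10-intact sample 4). Of HoxB, 8 of 9 lay below 0, with a median of -0.48 (-0.86 and 9 of 9 without that sample). Leaving out F10-intact sample 1 turned the HoxB median to 0.32, with 7 of 9 members above 0, so the direction of HoxB rests on that sample. HoxC had 2 tested members, both above 0, but both reached the test through the F10-deleted group alone and had to lie there. HoxD had 6 of 8 above 0 with a median of 0.09 (0.79 and 8 of 8 without F10-intact sample 1). The HoxD median turned to -0.24, with 6 of 8 below 0, when F10-intact sample 4 was left out.

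**Figure D2:**
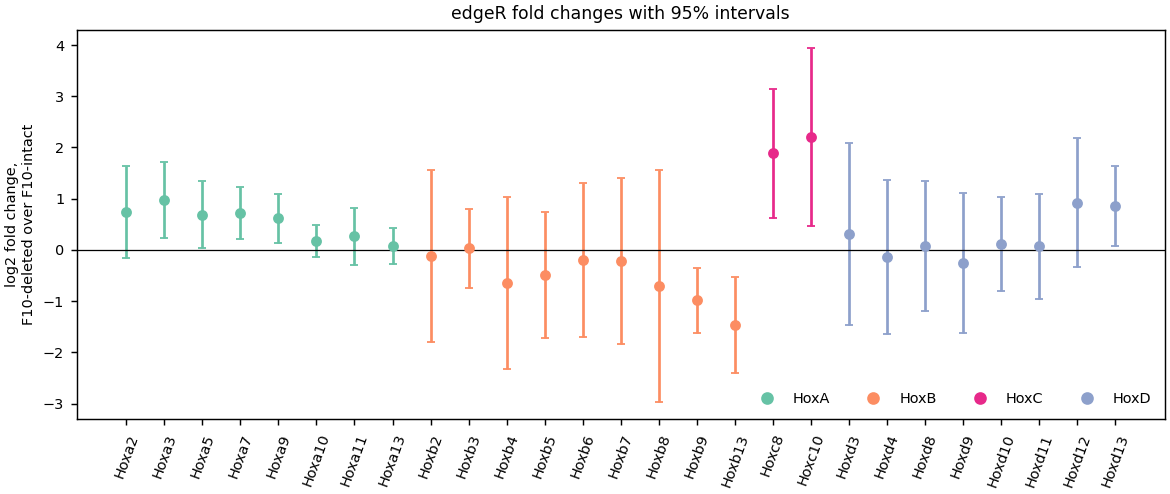
Log2 fold change of the 27 tested members, F10-deleted over F10-intact, from edgeR, with bars for unadjusted 95% intervals and colours for clusters. HoxA and HoxC points lie above 0 and most HoxB points below, with intervals widest in the middle of HoxB and HoxD, and no member passes the adjusted test. The HoxC members reached the test through the F10-deleted group alone and had to lie above 0.

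As a share of Hox RNA, HoxB took 52.3%, 49.8% and 63.6% in F10-intact samples 1, 3 and 4, and 40.3%, 27.0% and 33.7% in the F10-deleted samples. HoxA took 23.2%, 29.7% and 28.2% against 34.2%, 44.5% and 36.2%. HoxC took 0.265%, 0.495% and 0.16% against 0.93%, 1.16% and 1.47%, and HoxD 24.2%, 20% and 7.96% against 24.6%, 27.3% and 28.7%. The groups did not overlap in any of the 4 shares, which sum to 100% and so are not separate results. For HoxD the gap was narrow, 24.2% against 24.6%, between F10-intact sample 1 and F10-deleted sample 1. Without the 3 most abundant members, Hoxb13, Hoxb9 and Hoxa13, the mean HoxA share was 37.1% with F10-intact marrow against 37.5% with F10-deleted marrow. The difference in HoxA share thus depends on those members, of which Hoxb13 and Hoxb9 lie in HoxB. Summed HoxA itself was 74.7, 76.85 and 64.8 RPKM against 88.7, 91.6 and 84.2, without overlap. These shares and sums are descriptions with no test. In a whole tumour, fewer cells of a type and less RNA per cell cannot be told apart.

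**Figure D3:**
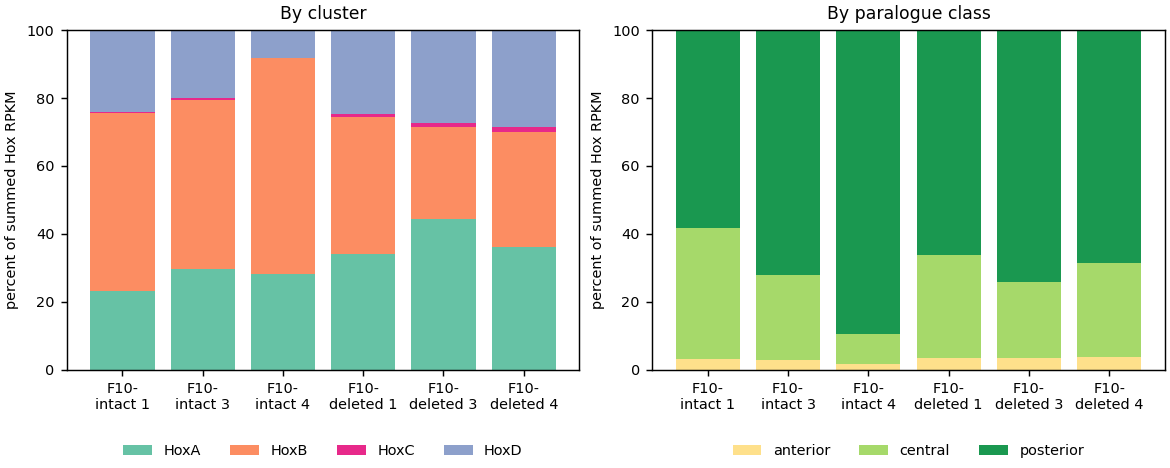
Percent of summed Hox RPKM in each of the 6 tumours, by cluster (left) and by paralogue class (right; anterior 1 to 3, central 4 to 8, posterior 9 to 13). The HoxB bar is 49.8% to 63.6% in the F10-intact samples and 27.0% to 40.3% in the F10-deleted samples, and the posterior bar is tallest in F10-intact sample 4.

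Within HoxB (chromosome 11, 96194316 to 96368256, plus strand, GRCm38), the 2 posterior genes were lower in every F10-deleted sample than in any F10-intact sample. Hoxb13 (ENSMUSG00000049604, chromosome 11, 96194316 to 96197447) is the HoxB member most closely tied to the prostate. Its level was 34.4, 45.9 and 95.6 RPKM in F10-intact samples 1, 3 and 4, against 27.5, 20.5 and 15.9 in the F10-deleted samples. F10-intact sample 4 was far above the rest, and the closest values across the groups were those of the samples numbered 1. The log2 fold change was -1.46 ± 0.40 (SE, n = 3 per group, edgeR adjusted p = 0.253), and -0.92 without F10-intact sample 4. By DESeq2 the adjusted p was 0.00808. The 9 luminal markers summed to 7792, 7799 and 8278 CPM against 7463, 8173 and 7071, with none at 0. Of these 9, 3 had fold changes above 0 and 6 below, with a median of -0.165, and 2 were below without overlap (background 7.67%). Pbsn, a luminal marker and androgen-dependent secretory gene, was among those lower in every F10-deleted sample, and had 37.1, 45.9 and 62.5 CPM against 4.51, 13.4 and 20.6 (-1.91 ± 0.49, edgeR adjusted p = 0.233). It was picked after its values were seen, and the part of luminal cells in the Hoxb13 values was not tested.

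Hoxb9 (ENSMUSG00000020875, chromosome 11, 96271457 to 96276595), known for patterning the trunk and the mammary gland, was more even. It stood at 38.9, 34.1 and 38.2 RPKM in the F10-intact samples, against 21.6, 11.02 and 23.6 in the F10-deleted samples. The F10-intact samples lay close together and above the others, with F10-deleted sample 3 lowest. The log2 fold change was -0.99 ± 0.27 (SE, edgeR adjusted p = 0.246), with a range of -1.19 to -0.68 when samples were left out in turn, and the DESeq2 adjusted p was 0.0299. The other 7 tested HoxB members overlapped between the groups, with fold changes from -0.70 to 0.03 on the log2 scale. All 7 lay above 0, at 0.20 to 0.66, without F10-intact sample 1 and below 0 without F10-intact sample 4, whereas Hoxb13 and Hoxb9 stayed below 0 with any sample left out.

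Hoxa13 and Hoxa10 were the steadiest of the members. Hoxa13 (ENSMUSG00000038203, chromosome 6, 52257694 to 52260880, minus strand) is needed for the tail-end urogenital tract and the digits. It measured 20.6, 27.5 and 27.3 RPKM in the F10-intact samples, against 28.3, 25.9 and 25.4 in the F10-deleted samples. Hoxa10, which specifies the seminal vesicle and the male accessory ducts, measured 22.4, 22.3 and 18.2 against 25.2, 23.9 and 22.0 RPKM. The coefficient of variation over the 6 samples was 10.7% for Hoxa13 and 10.6% for Hoxa10, against a median of 44.9% for tested members and 20.8% for all genes tested. Their log2 fold changes were 0.08 ± 0.15 and 0.18 ± 0.14, with 95% intervals of -0.28 to 0.43 and -0.14 to 0.49.

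Further forward in HoxA (chromosome 6, 52155590 to 52260880), Hoxa9, Hoxa7 and Hoxa3 had higher values in all F10-deleted samples. Hoxa9, which also maintains blood stem cells, had 9.06, 7.93 and 5.32 RPKM in the F10-intact samples, against 10.5, 12.6 and 11.1 in the F10-deleted samples. The log2 fold change was 0.62 ± 0.21 (SE, edgeR adjusted p = 0.331). Hoxa7, a trunk-level gene, had 5.73, 4.67 and 3.63 RPKM against 6.85, 9.04 and 7.40, a difference of 0.73 ± 0.22 (adjusted p = 0.284 by edgeR). Hoxa3, known for the pharyngeal glands, was low, at 0.505, 0.398 and 0.293 RPKM against 0.697, 0.828 and 0.835 (0.98 ± 0.32, edgeR adjusted p = 0.319). In these 3 genes F10-intact sample 4 was the lowest of all. Hoxa2 and Hoxa5 were also above in all F10-deleted samples, whereas Hoxa11 overlapped.

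**Figure D4:**
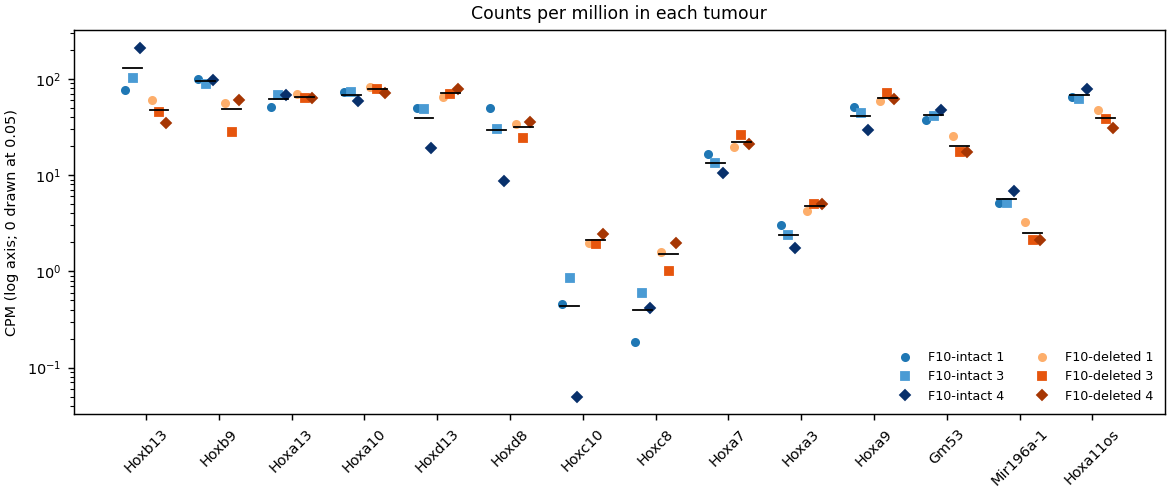
CPM of 11 Hox genes and 3 non-coding genes in each of the 6 tumours on a log axis, with black bars for group means and a value of 0 drawn at 0.05. Hoxb13, Hoxb9, Gm53, Mir196a-1 and Hoxa11os show every F10-deleted point below the F10-intact points, Hoxa13 and Hoxa10 sit close together, and Hoxd8 is low in F10-intact sample 4.

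HoxC (chromosome 15, 102921103 to 103036852, plus strand), whose posterior genes act in the trunk and hindlimb, was close to silent. Its 7 members with a row summed to 22, 34 and 9 counts in F10-intact samples 1, 3 and 4, against 53, 64 and 92 in the F10-deleted samples, with no overlap after scaling to library size. The ratio of the groups after that scaling was 3.13, with an exact 95% interval of 2.36 to 4.20 that covers counting error only. Hoxc10 (ENSMUSG00000022484), known for hindlimb and lumbar identity, had 5, 10 and 0 counts against 19, 23 and 29, and the log2 difference was 2.21 ± 0.75 (edgeR adjusted p = 0.330). Hoxc8, a trunk gene, had 2, 7 and 4 counts against 15, 12 and 23 (1.88 ± 0.55, edgeR adjusted p = 0.262). The long non-coding RNA Hotair, inside the cluster, had 0 counts in the F10-intact samples, against 2, 2 and 7 in the F10-deleted samples; it was chosen after its values were seen.

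Markers of skeletal muscle had higher values in every F10-deleted sample, beside these HoxC and HoxA values. The 11 muscle markers summed to 109, 19.9 and 12.9 CPM in the F10-intact samples, against 1799, 734 and 1646 in the F10-deleted samples. None of the 10 tested passed the adjusted test and all 10 lay without overlap above (background 8.99%), and Myh2, Myf6 and Myod1 were at 0 in at least 1 sample. The 7 adipocyte markers summed to 15 to 41.2 CPM against 75.4 to 88.7, and the 4 basal markers to 757 to 1879 against 2104 to 3541. The 5 endothelium markers summed to 23.4 to 42.4 CPM against 45.2 to 57.1. Singly, 1 of 6 tested adipocyte, 2 of 4 basal and 3 of 5 endothelium markers lay above without overlap (background 8.99%). None of these markers passed the adjusted test. Among the adipocyte markers Lep and Retn were at 0 somewhere, and no basal or endothelium marker was. The part of these cell types in the Hox differences was not tested.

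In HoxD (chromosome 2, 74668310 to 74765142, plus strand), Hoxd13 had the highest RPKM in every sample. In F10-intact sample 1 Hoxd9 came close to it, at 20.05 RPKM. Hoxd13 (ENSMUSG00000001819, chromosome 2, 74668310 to 74671599), needed for the prostate ducts and the digits, had 20.2, 19.4 and 7.75 RPKM in the F10-intact samples, against 26.3, 28.3 and 31.5 in the F10-deleted samples. All F10-deleted values were above, and F10-intact sample 4 was far below the rest. The log2 fold change was 0.86 ± 0.33 (SE, edgeR adjusted p = 0.409), and 0.54 without that sample. Hoxd8, a gene of the trunk, had 18.3, 11.04 and 3.17 RPKM against 12.4, 8.86 and 12.9, which overlapped. Its log2 fold change was 0.07 ± 0.54 (edgeR adjusted p = 0.979) and turned to -0.36 without F10-intact sample 4 and to -0.03 without F10-deleted sample 4. The other 6 tested HoxD members also overlapped between the groups.

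The 3 group-13 paralogues lay on different sides. The ratio of Hoxb13 to Hoxd13 in RPKM was 1.70, 2.37 and 12.3 in the F10-intact samples, against 1.05, 0.724 and 0.505 in the F10-deleted samples. The ratio of Hoxb13 to Hoxa13 was 1.67, 1.67 and 3.51 against 0.973, 0.793 and 0.626. Neither ratio overlapped between the groups, and both were highest in F10-intact sample 4. Hoxb13 lay below and Hoxd13 above without overlap, so their ratio had to separate the groups. Both ratios also share Hoxb13, so they are not results separate from those given above. As ratios within a sample they do not depend on the scaling between libraries.

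Large differences between samples ran through the middle of HoxB and HoxD, where the marrow groups overlapped. Summed over Hoxb2 to Hoxb8, the level was 94.95, 48.9 and 12.2 RPKM in the F10-intact samples, against 55.5, 24.0 and 38.8 in the F10-deleted samples. Summed over Hoxd3 to Hoxd12 it was 57.7, 32.4 and 10.3 against 37.5, 27.9 and 35.0. F10-intact sample 1 was highest and F10-intact sample 4 lowest in both sums, with a 7.80-fold range in the HoxB stretch and 5.60-fold in the HoxD stretch. The summed HoxA level ranged over 1.41-fold.

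Hoxb8 (ENSMUSG00000056648, chromosome 11, 96281905 to 96285315), a trunk gene picked here after its values were seen, spanned most. Its counts were 714, 395 and 33 in F10-intact samples 1, 3 and 4, against 326, 105 and 241 in the F10-deleted samples, or 24.96, 12.8 and 1.30 against 12.97, 3.36 and 7.79 RPKM. The drop ended sharply at Hoxb9, the next gene in the cluster. The ratio of Hoxb9 to Hoxb8 in RPKM was 29.5 in F10-intact sample 4 and 1.56 to 3.28 in the other 5, and the ratio of Hoxb13 to Hoxb8 was 73.8 against 1.38 to 6.10.

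**Figure D5:**
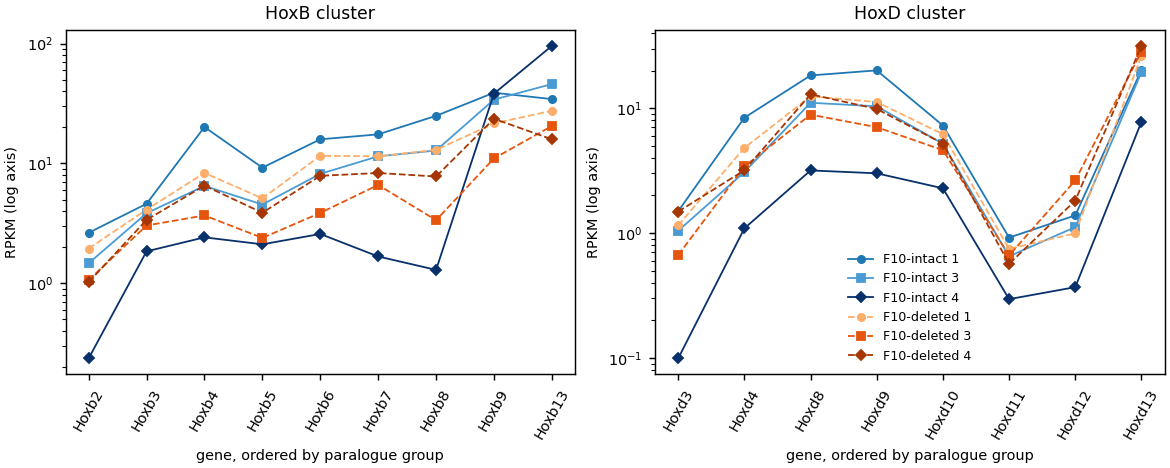
RPKM of the HoxB genes (left) and of the HoxD genes from Hoxd3 on (right) in each of the 6 tumours, ordered by paralogue group on a log axis. F10-intact sample 4 is lowest from Hoxb2 to Hoxb8 and throughout HoxD, and among the highest at Hoxb9 and Hoxb13.

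The promoters of Hoxb8 and Hoxd8, which were low together in F10-intact sample 4, are shown beside that of the steady Hoxa13. Each line gives the 250 bases before the transcript start, from RefSeq on GRCm38.p6, on the strand of the gene. They lie at chr11:96281655-96281904 (plus), chr2:74704365-74704614 (plus) and chr6:52260881-52261130 (minus). Capitals mark 3 motifs on either strand. CCAAT and a TATA box are general promoter elements: the TATA box was searched as TATAAA. A core that CDX and posterior HOX proteins can bind was searched as TTTACG.
Hoxb8: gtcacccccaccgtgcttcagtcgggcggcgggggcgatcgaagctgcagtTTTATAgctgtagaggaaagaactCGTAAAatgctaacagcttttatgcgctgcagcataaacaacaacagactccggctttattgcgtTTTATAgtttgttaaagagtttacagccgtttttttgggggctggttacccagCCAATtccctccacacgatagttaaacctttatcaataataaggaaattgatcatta
Hoxd8: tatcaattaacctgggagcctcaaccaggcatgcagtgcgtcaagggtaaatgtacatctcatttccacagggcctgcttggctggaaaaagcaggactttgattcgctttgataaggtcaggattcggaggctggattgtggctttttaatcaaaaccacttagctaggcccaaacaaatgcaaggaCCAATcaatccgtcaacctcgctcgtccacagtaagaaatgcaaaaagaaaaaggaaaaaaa
Hoxa13: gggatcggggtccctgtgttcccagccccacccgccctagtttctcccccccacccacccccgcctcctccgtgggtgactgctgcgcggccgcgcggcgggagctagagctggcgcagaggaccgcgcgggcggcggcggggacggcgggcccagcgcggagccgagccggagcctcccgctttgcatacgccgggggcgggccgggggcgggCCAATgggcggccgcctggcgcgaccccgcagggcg

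Over windows of 300 bases, which add the first 50 bases of the transcript, Hoxb8 held 13 CpG and Hoxd8 held 6, against 45 in Hoxa13, the most among members. A window was present for 21 of the 36 members, 23 windows in all, with a median of 15 CpG against 7 over all 32851 windows. On either strand CCAAT was found in 60.9% of member windows and 37.4% of all windows, TATAAA in 17.4% and 13.6%, and TTTACG in 8.7% (Hoxb8 and Hoxd11) and 3.0%. TGATNNAT, a core for HOX with PBX, was found in 13% and 8.8%, and TTTATGG in 4.3% and 2.7%. These are matches of letters only.

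The markers of seminal vesicle, the gland that joins the prostate, had the same order over the 6 samples as the middle of HoxB. The 6 markers summed to 4171, 2592 and 75.3 CPM in F10-intact samples 1, 3 and 4, against 3308, 326 and 913 in the F10-deleted samples, with Svs3a and Svs6 at 0 somewhere. Pate4 made up most of the sum, at 3729, 2445 and 7.24 CPM against 2400, 321 and 762. The order from high to low was F10-intact 1, F10-deleted 1, F10-intact 3, F10-deleted 4, F10-deleted 3, F10-intact 4. Of the 27 tested members 6 had exactly this order (22.2%), namely Hoxb3, Hoxb5, Hoxb6, Hoxb7, Hoxb8 and Hoxd9, and 0.99% of all genes tested did. Both were counted after the values were seen, and the part of this gland in the Hox values was not tested.

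Pax2 and Pax8, transcription factors of the Wolffian duct, from which the seminal vesicle forms, had that order too. Pax8 had 17.0, 9.07 and 0 CPM in the F10-intact samples, against 9.64, 2.28 and 7.41 in the F10-deleted samples. Pax2 had 11.1, 3.68 and 0.103 CPM against 7.02, 1.60 and 2.64. Emx2, another factor of the urogenital ducts, had 28.1, 15.7 and 0 CPM against 20.4, 3.799 and 16.5. All 3 were lowest in F10-intact sample 4, where Pax8 and Emx2 had no counts, and highest in F10-intact sample 1; they were singled out after their values were seen. Smooth muscle markers, 6 in number and none at 0, summed to 2344, 1409 and 612 CPM against 1842, 1850 and 932, and were also lowest in that sample. So were the 5 urothelium markers, at 383, 424 and 150 CPM against 325, 1520 and 355, and the 5 nerve and glia markers, at 67.7, 73.6 and 21.1 against 80.6, 99.2 and 36.8, none of them at 0. The basal markers were lowest there too, at 1879, 1238 and 757 CPM against 2661, 3541 and 2104. The part of these cell types in the low Hox values of F10-intact sample 4 was not tested.

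Among non-coding genes of the clusters, 15 had a row and 6 were tested. As with Hoxb13 and Hoxb9, 3 of these were lower in every F10-deleted sample (background 7.67%). None passed the adjusted edgeR test. Gm53, a long non-coding gene between Hoxb13 and Hoxb9, had 37.1, 41.1 and 47.6 CPM in the F10-intact samples, against 25.7, 17.5 and 17.4 in the F10-deleted samples. The log2 fold change was -1.06 ± 0.20 (SE, edgeR adjusted p = 0.109; DESeq2 adjusted p = 0.00101). Hoxa11os, antisense to Hoxa11, had 64.8, 61.4 and 78.3 CPM against 47.7, 38.2 and 31.1 (-0.81 ± 0.19, edgeR adjusted p = 0.1803; DESeq2 adjusted p = 0.0167). Hoxa11, which shares 35.0% of its exon bases, overlapped between the groups at 0.26 ± 0.24. Hoxd3os1 (0.45, edgeR adjusted p = 0.761) and 9530018H14Rik (-0.22, edgeR adjusted p = 0.800) also overlapped.

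Mir196a-1, just beyond the annotated end of Gm53, was picked after its values were seen. Its counts were 56, 60 and 66 in the F10-intact samples, against 31, 25 and 25 in the F10-deleted samples, a difference of -1.19 ± 0.32 on the log2 scale (edgeR adjusted p = 0.233). Libraries from poly-A RNA do not read the mature miRNA, so these counts stand for a longer transcript across the locus. Hoxb8, with the site shown above, overlapped between the groups, at -0.70 ± 0.94 (edgeR adjusted p = 0.850).

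The Hox profile was similar from sample to sample. Pearson's r of log2(RPKM + 0.1) over the 36 members had a median of 0.907 within the F10-intact group (0.877 to 0.973 over 3 pairs), 0.969 within the F10-deleted group (0.957 to 0.969) and 0.929 between groups (0.883 to 0.981 over 9 pairs). The 5 pairs that include F10-intact sample 4 ran from 0.877 to 0.907, and the other 10 from 0.914 to 0.981. Over all genes tested with a length the 15 pairs ran from 0.917 to 0.974. Genes are not independent replicates, and the points share each gene's own level, so these are descriptions.

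Genes that work with or regulate Hox genes were read from the same fit, and none of them passed the adjusted test. Of the cofactors, PBX and MEIS proteins that bind DNA beside HOX proteins, 9 were tested, with 5 above and 4 below 0 and a median of 0.06. Meis2 had 121, 86.8 and 129 CPM in the F10-intact samples, against 203, 168 and 201 in the F10-deleted samples, without overlap (0.77 ± 0.18, edgeR adjusted p = 0.174). Meis1 (0.45, adjusted p = 0.265 by edgeR) was likewise above in every F10-deleted sample, and Meis3 below (-0.39, adjusted p = 0.544 by edgeR). Of 21 Polycomb and Trithorax genes, which keep Hox genes off or on, 9 lay above and 12 below 0 with a median of -0.02. Those named by rule were Pcgf2 (-0.29), Jarid2 (-0.30), Cbx2 (0.39) and the abundant Psip1 (-0.17), with edgeR adjusted p from 0.569 to 0.751.

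Retinoic acid switches on Hox genes in the embryo. Of 15 tested genes of its pathway 12 lay above and 3 below 0, with a median of 0.47, and 5 were above without overlap (background 8.99%). Rarb, a receptor and direct target, had 18.2, 21.0 and 24.4 CPM in the F10-intact samples, against 35.8, 49.1 and 45.7 in the F10-deleted samples, without overlap (1.04 ± 0.18, edgeR adjusted p = 0.0982). Stra6, which takes up retinol, had 15.9, 13.3 and 4.66 CPM against 39.6, 48.3 and 33.0 (1.83 ± 0.41, edgeR adjusted p = 0.174). Aldh1a3, which makes retinoic acid, had 62.4, 52.9 and 34.0 against 92.4, 82.6 and 106 CPM (0.91 ± 0.23, edgeR adjusted p = 0.209). The most abundant gene of the list, Dhrs3, overlapped at 0.03. Of the homeobox genes related to or flanking the clusters, 3 of 9 had a row. Evx2, which lies beside Hoxd13, had 8.29, 5.65 and 0.724 CPM against 4.93, 4.98 and 7.15, lowest in F10-intact sample 4, and Evx1 (-0.29) and Cdx1 (0.96) also overlapped.

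Regional factors outside the Hox family gave the last comparison. Of 17 tested urogenital factors 5 lay above and 12 below 0, with a median of -0.13. Tbx18, a factor of ureter stroma, had 0.368, 0.684 and 0.517 CPM against 2.93, 1.18 and 2.38 (2.01 ± 0.51, edgeR adjusted p = 0.205). Like Tbx15 and Six3 described next, it passed the filter on low counts through the group where it is high and had to differ. Tbx3 lay below without overlap (-0.36, adjusted p = 0.375 by edgeR), and Sox9 (-0.53) and the abundant Foxa1 (-0.22) overlapped. Of 16 factors of the head and limb 7 had a row and 5 were tested. Tbx15, a factor of limb and muscle, showed 7, 0 and 0 counts in the F10-intact samples, against 110, 61 and 183 in the F10-deleted samples (5.56 ± 0.99, edgeR adjusted p = 0.103). Six3, a forebrain factor, had 21, 27 and 65 against 5, 0 and 5 counts (-3.52 ± 0.89, edgeR adjusted p = 0.216). Tbx15 was high in the same samples as the muscle markers above, and the part of muscle in its values was not tested.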

How the data were processed

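The authors deposited raw read counts per Ensembl gene for 6 samples. Alignment to GRCm38 by STAR 2.7.10a is named in the submitters' processing notes, as is DESeq2 without a version. Per the labels' protocols, libraries were made from poly-A RNA with strand kept and read as single ends of 120 bases. Which program counted the reads, and with which strand setting, is not given in the sources used here. Symbols, exons and lengths came from GENCODE M21, which matched 21605 of 21718 identifiers.

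The main test was the edgeR 4.0.16 quasi-likelihood test in R 4.3.3 with TMM factors, a robust fit, filterByExpr at a minimum count of 10 (15963 genes) and Benjamini-Hochberg adjustment at 0.05. Alternatives were DESeq2 1.42.0, limma-voom (limma 3.58.1), other scalings and filters, an adjusted p under 0.1, a replicate block, other lengths and leaving out each sample. Shares and overlap counts without F10-intact sample 4, and cluster medians without each sample, were added after seeing the data. On data simulated for this comparison over 15963 genes, edgeR recovered 26 of 100 genes at 2-fold and 78 of 100 at 4-fold with 8.77% false calls, and DESeq2 recovered 47 and 86 with 28.5% false calls.

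Both groups carry the numbers 1, 3 and 4. Deviations of same-numbered samples correlated across genes at 0.35, 0.135 and 0.181, all above 0.1. Differently numbered samples were not compared in this way, and the labels state no pairing. The main test therefore left the samples unpaired, and the numbers were taken as pairs only in the replicate block. Over the Hox members alone the correlations were 0.476, -0.235 and -0.187, so 2 of the 3 pairs did not deviate together there. Within each group, no samples were alike enough to be 1 library deposited again (chi-square per degree of freedom of at least 24.4). Pairs across the groups were not checked in this way. The genes named were the 6 members highest in mean RPKM, the top member of each cluster, the 8 with the smallest p, up to 3 of smallest p and the most abundant of each regulator list, and the 4 most abundant and 2 of smallest p among non-coding genes. Cell type marker lists are given as sums, a departure from that rule. Certain genes that these rules name, and an allele of the mouse model, are not reported here. The members and lists were chosen with earlier results of these data known.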

Additional observations from a re-analysis of the deposited data

How the results depend on the processing

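Counts limit the HoxC members most. The interval on the summed HoxC ratio covers counting error only, and the edgeR intervals include the spread between samples. Of the alternatives run, scaling, filters, limma-voom, the robust setting and an adjusted p under 0.1 gave 0 called Hox members, and DESeq2 gave 2. Genes called over the whole table numbered 7 in the main analysis, 2 with TMM without the 50 most abundant genes, 487 with DESeq2, 2 with limma-voom, 2 when 1 CPM was required in 3 samples, 3 with a non-robust fit and 85 at an adjusted p under 0.1, and 0 to 72 when samples were left out in turn. The cause was not tested. With the replicate block, taken from the pairing of the sample numbers, 2 genes and 0 Hox members were called, and the median log2 fold change of the members was 0.22. When samples were left out in turn, that median ran from -0.23 (without F10-intact sample 4) to 0.55, Hoxa13 ran from -0.018 (without F10-intact sample 1) to 0.15, and Hoxd8 from -0.36 to 0.70. The HoxB median ran from -0.86 (without F10-intact sample 4) to 0.32 (without F10-intact sample 1), and the HoxD median from -0.24 to 0.79 in the same settings.

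Shares of Hox RNA are means per group, F10-intact before F10-deleted. HoxA (27.1% and 38.3% in the main analysis) was 31.7% and 43.9% without division by length, 21.8% and 31.0% without members sharing exon bases, 36.8% and 42.2% without the most abundant member, and 37.1% and 37.5% without the 3 most abundant. HoxB (55.2% and 33.7%) was 41.1% and 27.0% without the most abundant member and 30.6% and 23.3% without the 3 most abundant. HoxC (0.307% and 1.19%) was 0.586% and 1.66% without those 3, and 0.895% in the F10-deleted group without members sharing exon bases. HoxD (17.4% and 26.9%) was 31.7% and 37.6% without the 3, and in the F10-deleted group 23.7% by coding length, 29.1% without members sharing exon bases and 29.5% without the most abundant. The anterior share (2.53% and 3.49%) was 3.81% and 5.02% without division by length, 0.0427% and 0.0522% without members sharing exon bases and 4.92% and 4.88% without the 3, and in the F10-deleted group 4.24% by longest transcript, 3.68% by coding length and 3.84% without the most abundant. The central share was 42.4% and 37.6% and the posterior 52.7% and 57.5% without the 3, and the posterior 73.8% in the F10-deleted group without members sharing exon bases. Over the 21 members with at least 10 counts in every sample, the median profile correlation was 0.873 between groups and 0.944 within the F10-deleted group.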
